A study of Mus musculus with 10 samples.

Results

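Gata2, Gata3, Gata4, Gata5 and Gata6 are the 5 GATA transcription factor genes that were followed here across lists of Polycomb-group (PcG) peaks from mouse embryonic stem cells (ESCs) and neural stem cells (NSCs). They were chosen by name, as regulators of non-neural lineages, and located in mm9 with the GENCODE annotation, where they are 5 of 22350 protein-coding genes on the 20 chromosomes with peaks. Each gene was read over its gene body plus 10 kb on either side, called its locus here. The ESCs were of the J1 line, grown on embryonic fibroblast feeders, with serum and leukemia inhibitory factor, and the feeders were depleted before ChIP. The NSCs had been derived from J1 ESCs in culture and were maintained with EGF and FGF, and neither cell type had any other treatment. Cross-linked ChIP-seq was done for Ring1b, Cbx2, Ezh2 and H3K27me3 in ESCs and for Ring1b and H3K27me3 in NSCs, with 1 library for each of the 6 lists. Inputs had libraries of their own and were not analysed here. Without replicates no difference between lists has an error or a p-value. Peak edges lie in steps of 200 bp, so distances to a peak and edges shared by peaks are no finer than that. The lists give where peaks begin and end and carry neither signal height nor expression, so the identity of the cells could not be checked against marker genes, the depth of each library is unknown, and a locus without a peak is one where the authors' threshold was not passed.

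GATA factors bind DNA through zinc fingers that recognise the core sequence GATA. Gata2 and Gata3 act in blood cells and trophoblast, and Gata3 in T cells, while both are also used in some neurons of the midbrain and spinal cord. Gata4, Gata5 and Gata6 act in the heart and in endoderm, and Gata4 and Gata6 in the primitive endoderm of the early embryo. PcG proteins keep such developmental regulators silent in cells that do not use them. Ezh2, in the PRC2 complex, methylates H3K27, Cbx2 is a PRC1 subunit that can bind the methylated histone, and Ring1b is the ubiquitin ligase of PRC1. In mammals, PcG complexes are found mainly at promoters rich in CpG dinucleotides.

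From the RefSeq promoter table (GRCm38.p6), 4 promoters were read for 3 of the 5 genes (Gata2, Gata3 and Gata5). Promoters of the remaining genes were not described here, which does not mean that RefSeq lacks them. The 250 bases upstream of each start are shown because these stretches lie under the peaks described below, and capitals mark each CpG. All 4 matched mm9 exactly and once. They lie at chr6:88143635-88143884 on the forward strand (the upstream start of Gata2), chr6:88148408-88148657 on the forward strand (the downstream start of Gata2, in the first intron of the longer transcript), chr2:9800228-9800477 on the reverse strand (Gata3, in an intron of the transcripts that start farther upstream, and within the non-coding gene Gm13256) and chr2:180069385-180069634 on the reverse strand (Gata5).
Gata2, upstream start: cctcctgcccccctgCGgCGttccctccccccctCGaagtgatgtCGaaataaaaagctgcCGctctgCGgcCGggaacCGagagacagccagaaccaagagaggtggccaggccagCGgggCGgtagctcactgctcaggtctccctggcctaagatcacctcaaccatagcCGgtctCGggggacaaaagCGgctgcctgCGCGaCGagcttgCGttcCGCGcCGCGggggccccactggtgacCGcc
Gata2, downstream start: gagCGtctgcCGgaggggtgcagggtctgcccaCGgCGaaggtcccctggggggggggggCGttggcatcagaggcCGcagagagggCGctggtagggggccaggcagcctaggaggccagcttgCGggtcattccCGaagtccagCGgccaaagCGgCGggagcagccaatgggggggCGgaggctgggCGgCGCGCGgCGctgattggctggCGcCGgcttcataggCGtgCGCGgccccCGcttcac
Gata3: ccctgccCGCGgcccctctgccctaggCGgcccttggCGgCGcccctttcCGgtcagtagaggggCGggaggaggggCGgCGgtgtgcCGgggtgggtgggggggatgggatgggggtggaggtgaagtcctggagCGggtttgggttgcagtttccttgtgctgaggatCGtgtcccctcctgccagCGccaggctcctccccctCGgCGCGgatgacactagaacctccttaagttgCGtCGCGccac
Gata5: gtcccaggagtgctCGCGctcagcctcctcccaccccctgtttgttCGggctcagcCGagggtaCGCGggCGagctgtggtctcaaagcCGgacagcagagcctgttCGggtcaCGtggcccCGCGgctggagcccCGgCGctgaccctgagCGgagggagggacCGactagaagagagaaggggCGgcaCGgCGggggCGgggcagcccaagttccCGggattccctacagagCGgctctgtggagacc

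With 50 bases after the start included, the RefSeq promoters had 32 and 29 CpGs at the upstream and downstream start of Gata2, 22 at Gata3 and 26 at Gata5, against a median of 7 over all 32851 promoters of the table. Their ratios of observed to expected CpGs were 0.900, 0.760, 0.658 and 0.714 in the same order, and the median promoter had 0.384. GC content was 69.3%, 73.7%, 67.3% and 69.7%, compared with a median of 52.7%. Gata5 lay within the range of the Gata2 and Gata3 promoters in all 3 measures. The GATA motif was searched on both strands as AGATAA, its variant TGATAA, the form AGATAG and its variant TGATAG. It was found once, as TGATAG in the Gata3 promoter, and 29.8% of all promoters held at least 1 of these forms.

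All 5 GATA genes had a peak of Ring1b, Ezh2 and H3K27me3 in ESCs, 4 had a peak of Cbx2, and the same 4 had peaks of both Ring1b and H3K27me3 in NSCs. The gene without Cbx2 and without NSC peaks was Gata5. Over all protein-coding genes, a peak in the locus was found for 11.5% with ESC Ring1b, 3.09% with Cbx2, 5.28% with Ezh2 and 9.97% with ESC H3K27me3. In NSCs the shares were 4.64% for Ring1b and 4.7% for H3K27me3. Peaks of all 4 ESC lists were found at 4 of the 5 GATA genes and at 1.98% of all genes. Peaks of all 6 lists were found at the same 4 GATA genes and at 0.975% of all genes. These shares describe the lists and give no test of the GATA genes as a group.

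**Figure D1:**
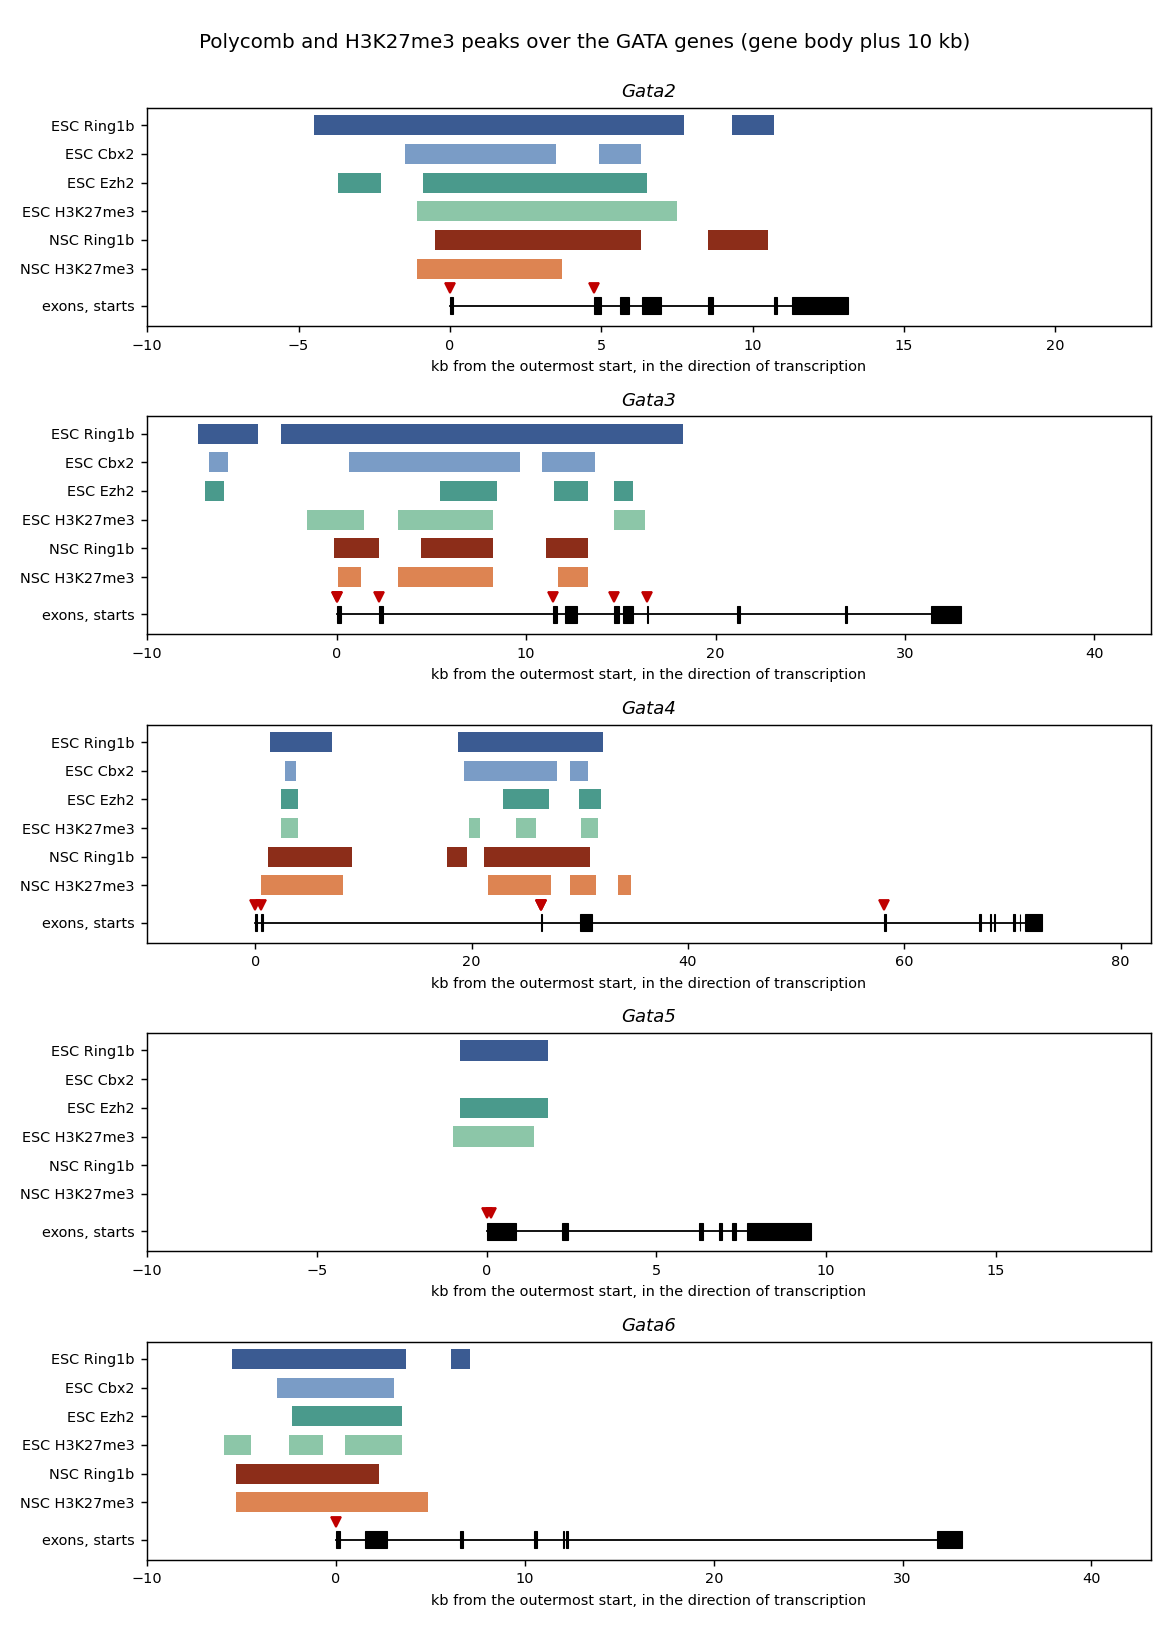
Peaks of the 6 lists (bars) at each GATA gene, drawn by distance in kb from the outermost annotated start, with exons of all transcripts merged (black) and annotated starts (red triangles). Gata5 has 3 ESC peaks and no NSC peak, and the other 4 genes have peaks in every list.

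The 5 loci held 59 peaks, 41 in the ESC lists and 18 in the NSC lists. Of the 59, 39 were wider than the median peak of their own list, 24 of the 41 in ESCs and 15 of the 18 in NSCs. The smallest width that the lists contain, 1000 bp, was that of 6 peaks, and 19 covered no exon of the gene. All 6 of the narrowest peaks were in ESC lists, where this width is common. By width, peaks of 1000 bp began at rank 693 of 1033 for Cbx2 and 1001 of 1173 for Ezh2. For ESC H3K27me3 they began at rank 1824 of 2192, and for ESC Ring1b at 2146 of 2335. Peaks without an exon were not counted over the whole lists, so these counts only describe the 5 loci. Covered share, the percentage of a locus under peaks of a list, was highest for ESC Ring1b at Gata3 (46.1%), followed by Gata2 (41.0%), Gata4 (20.7%), Gata6 (19.2%) and Gata5 (8.79%). The order differed for H3K27me3 of ESCs, with Gata2 at 25.95%, Gata3 at 18.1%, Gata6 at 11.7%, Gata5 at 8.12% and Gata4 at 6.47%. The median over the 5 genes was 20.7% for ESC Ring1b, 12.1% for Cbx2, 10.9% for Ezh2 and 11.7% for ESC H3K27me3, where the median of all genes was 0 in every list. Among all genes that had a peak of the list in question, the median ranged from 3.29% for NSC Ring1b to 4.83% for Cbx2 over the 6 lists. Both orders hold for this window. With the gene body alone, ESC Ring1b covered 69.4% of Gata2, 55.4% of Gata3, 26.4% of Gata4, 18.9% of Gata5 and 14.2% of Gata6, so that Gata2 came first and Gata6 last. ESC H3K27me3 then covered 14.7% of Gata5 and 9.06% of Gata6, which changed places. With 1 library per list, neighbouring genes in these orders cannot be told apart by an error.

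**Figure D2:**
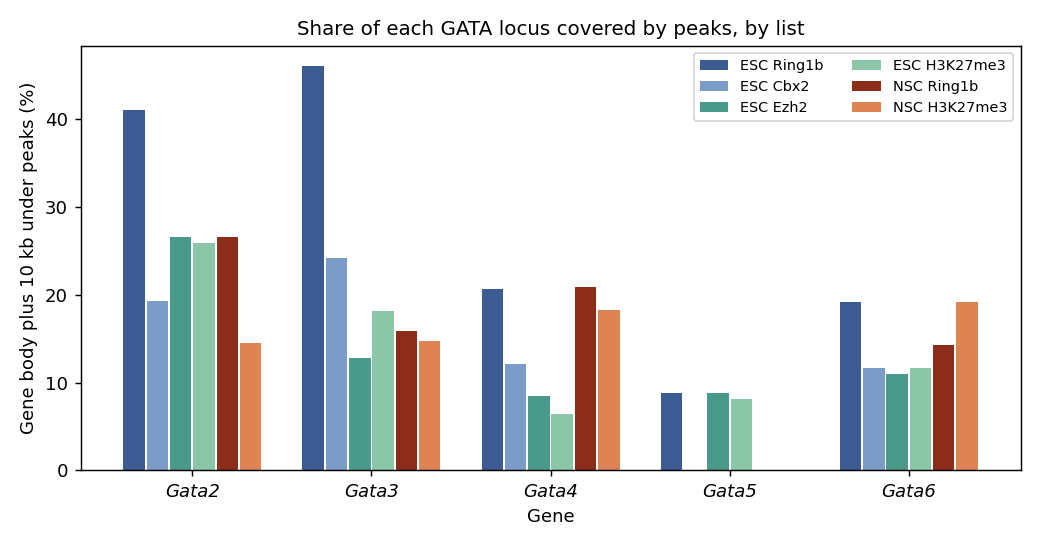
Percentage of each GATA locus (gene body plus 10 kb) under the peaks of each of the 6 lists, 1 library per bar. ESC Ring1b has the highest bar at Gata2 (41.0%) and Gata3 (46.1%), and Gata5 has no bar for Cbx2 or either NSC list.

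Counted at the outermost annotated start of each gene, 4 GATA starts lay inside an ESC Ring1b peak, 3 inside an Ezh2 peak, 3 inside an ESC H3K27me3 peak and 2 inside a Cbx2 peak. In NSCs, 3 lay inside a Ring1b peak and 2 inside an H3K27me3 peak. The same count over all protein-coding genes gave 7.03% for ESC Ring1b, 2.56% for Ezh2, 4.31% for ESC H3K27me3, 1.15% for Cbx2, 1.74% for NSC Ring1b and 1.77% for NSC H3K27me3. Gata6 has 1 annotated start and the other 4 genes have several, and the outermost one was not always the one under a peak. When any annotated start counted, the GATA genes numbered 5 for ESC Ring1b, 4 for Cbx2, 4 for Ezh2, 3 for ESC H3K27me3, 4 for NSC Ring1b and 3 for NSC H3K27me3. The shares of all genes were then 8%, 1.36%, 3.12%, 5.28%, 2.04% and 2.13%.

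Gata2 (ENSMUSG00000015053.8) occupies chromosome 6 between 88143885 and 88157024, on the forward strand. Its 2 starts are 4773 bp apart. In ESCs a Ring1b peak of 12200 bp, from 88139401 to 88151600, held both starts and 4 of the 7 exon blocks, and a second one of 1400 bp touched exon block 6. H3K27me3 had 1 peak, of 8600 bp, from 88142801 to 88151400, which was wider than 98.7% of the peaks of its list. Ezh2 had a peak of 7400 bp over both starts and another of 1400 bp upstream, from 88140201 to 88141600. Cbx2 had a peak of 5000 bp over the upstream start and one of 1400 bp that began after the downstream start, at 88148801. In NSCs, a Ring1b peak of 6800 bp, from 88143401 to 88150200, held both starts, and an H3K27me3 peak of 4800 bp, from 88142801 to 88147600, held the upstream one but not the downstream one. A second NSC Ring1b peak, of 2000 bp, lay over exon block 5. The upstream start of Gata2 lay inside a peak of all 6 lists, which no other annotated start of the 5 genes did.

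Gata3 (ENSMUSG00000015619.9) occupies chromosome 2 between 9778705 and 9811661, on the reverse strand, with 6 starts. Its widest ESC Ring1b peak spanned 21200 bp, from 9793401 to 9814600, ranked 15 of 2335 by width, and held all 6 starts, and another, of 3200 bp, lay upstream. The peaks of the other ESC lists were shorter and lay within these. Cbx2 had 3 peaks, of 9000, 2800 and 1000 bp. Ezh2 had 4 peaks, of 3000, 1800, 1000 and 1000 bp, and none of them held a start. H3K27me3 had 3 peaks, of 5000, 3000 and 1600 bp, and the one of 3000 bp held the outermost start. The stretch from 9803401 to 9806200 lay under all 4 ESC lists and under both NSC lists. It is in an intron of Gata3, between exon blocks 2 and 3, and overlaps 4930412O13Rik and 9230102O04Rik, 2 genes that the annotation places within Gata3.
In NSCs, the wide Ring1b domain was represented by 3 separate peaks, of 3800, 2400 and 2200 bp, and NSC Ring1b covered 8400 bp of the locus compared with 24400 bp in ESCs. All of these 8400 bp lay under the ESC peaks. H3K27me3 had 3 NSC peaks, of 5000, 1600 and 1200 bp. The widest, from 9803401 to 9808400, had the same start and end as the ESC peak. The peak of 1600 bp lay where ESCs had Ring1b, Cbx2 and Ezh2 peaks but none of H3K27me3. The start at 9800227 lay outside it. None of the 6 Gata3 starts was inside an NSC H3K27me3 peak, although the outermost one was 61 bp away from the nearest. The starts of 2 genes within Gata3, Gm13256 and 9230102O04Rik, lay inside peaks of both NSC lists, and peaks here cannot be assigned to one of these genes.

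Gata4 (ENSMUSG00000021944.8) occupies chromosome 14 between 63817759 and 63890529, on the reverse strand. Its outermost start was outside every peak, while the peaks formed 2 groups. One lay between 529 and 8928 bp downstream of the outermost start. The other reached from 17729 to 34728 bp downstream and took in a cluster of 3 starts, 26421 to 26444 bp downstream. In ESCs, Ring1b had a peak of 13400 bp over this cluster (63858401 to 63871800) and one of 5800 bp in the first group (63883401 to 63889200). Cbx2 had peaks of 8600, 1600 and 1000 bp, and Ezh2 of 4200, 2000 and 1600 bp. H3K27me3 had 4 narrow ESC peaks, of 1800, 1600, 1600 and 1000 bp, and held none of the 6 starts.
In NSCs, Ring1b covered 19400 bp of the Gata4 locus, compared with 19200 bp in ESCs, and 16400 bp were shared. NSC H3K27me3 covered 17000 bp, compared with 6000 bp in ESCs. Its peaks were of 7600, 5800, 2400 and 1200 bp, and the one of 5800 bp, from 63863201 to 63869000, held the cluster of 3 starts. The peak of 7600 bp, from 63882401 to 63890000, covered 1 of the 2 outer starts. The 3 starts of the cluster were thus inside peaks of all lists except ESC H3K27me3.

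Gata6 (ENSMUSG00000005836.8) occupies chromosome 18 between 11052508 and 11085633, on the forward strand, with 1 start. An ESC Ring1b peak of 9200 bp, from 11047001 to 11056200, held the start, and another of 1000 bp lay over exon block 3. Single peaks of Cbx2 (6200 bp) and Ezh2 (5800 bp) held the start and the first 2 exon blocks. ESC H3K27me3 was split into peaks of 1400, 1800 and 3000 bp, and the start lay in a gap, 493 bp from the nearest. In NSCs, H3K27me3 formed 1 peak of 10200 bp, which contained the start and ranked 27 of 1647 by width, and Ring1b formed 1 peak of 7600 bp that lay wholly within it. A non-coding gene on the opposite strand, 1010001N08Rik, starts 57 bp from Gata6, and its start was inside peaks of the same 5 lists. Peaks at this pair of starts cannot be assigned to one gene or the other.

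Gata5 (ENSMUSG00000015627.4) occupies chromosome 2 between 180059838 and 180069404, on the reverse strand. Ring1b and Ezh2 each had 1 ESC peak, of 2600 bp, with the same start and end, from 180067601 to 180070200. The ESC H3K27me3 peak, of 2400 bp, ran from 180068001 to 180070400. All 3 held both annotated starts and the first exon block and no other exon. The Ring1b peak was wider than 57.0% of its list, where the widest Ring1b peak at each of the other 4 genes was wider than 93.9% of its list or more. The nearest Cbx2 peak was 441397 bp from the Gata5 start. In NSCs the nearest Ring1b peak was 310004 bp away and the nearest H3K27me3 peak 51597 bp. Gm14318, a gene on the opposite strand that overlaps Gata5, starts 39 bp beyond the Ring1b peak.

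The retention of PcG marks upon differentiation was then compared by the bases under peaks, at the resolution of the peak edges. For Ring1b, NSC peaks covered 85.4% of the bases under ESC peaks at Gata4, 74.5% at Gata6, 58.8% at Gata2, 34.4% at Gata3 and 0% at Gata5. For H3K27me3 the values were 90.3% at Gata6, 80.0% at Gata4, 64.6% at Gata3, 55.8% at Gata2 and 0% at Gata5. Among the 2572 protein-coding genes with an ESC Ring1b peak in the locus, 80.1% kept no such base, and the median was 0. Among the 2229 genes with an ESC H3K27me3 peak, 73.4% kept none. Counting peaks in place of bases, an NSC peak was present at 22.9% of genes with an ESC Ring1b peak (95% Clopper-Pearson interval 21.3% to 24.6%) and at 29.6% of genes with an ESC H3K27me3 peak (27.7% to 31.6%). For the GATA genes the count was 4 of 5 for both.
At Gata2 and Gata3, NSC H3K27me3 covered 0.558 and 0.812 times as many bases as ESC H3K27me3. The ratio was 1.65 at Gata6 and 2.83 at Gata4. Over the 660 genes with H3K27me3 peaks in both cell types, the median ratio was 0.970. Of these genes, 92.1% had a lower ratio than Gata4, 76.7% than Gata6, 40.3% than Gata3 and 20.9% than Gata2. For Ring1b the ratios were 0.344 at Gata3, 0.647 at Gata2, 0.745 at Gata6 and 1.01 at Gata4, and the median of 590 genes was 0.667. Gata4 and Gata6 had more bases under H3K27me3 peaks in NSCs than in ESCs, whereas Gata2 and Gata3 had fewer. Over the 660 genes, 44.5% had more in NSCs, so such a split is near the share over all genes. The size of the difference at Gata6 depended on how peaks were joined. With peaks within 3 kb merged, H3K27me3 covered 17.7% of the Gata6 locus in ESCs and 19.2% in NSCs, and with peaks at least 2 kb wide it covered 5.65% and 19.2%. Merging also narrowed the Ring1b difference at Gata3, to 48.3% in ESCs and 25.3% in NSCs. The authors chose size parameters for peak calling by inspecting the calls, and the part of that step in these ratios was not tested.

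**Figure D3:**
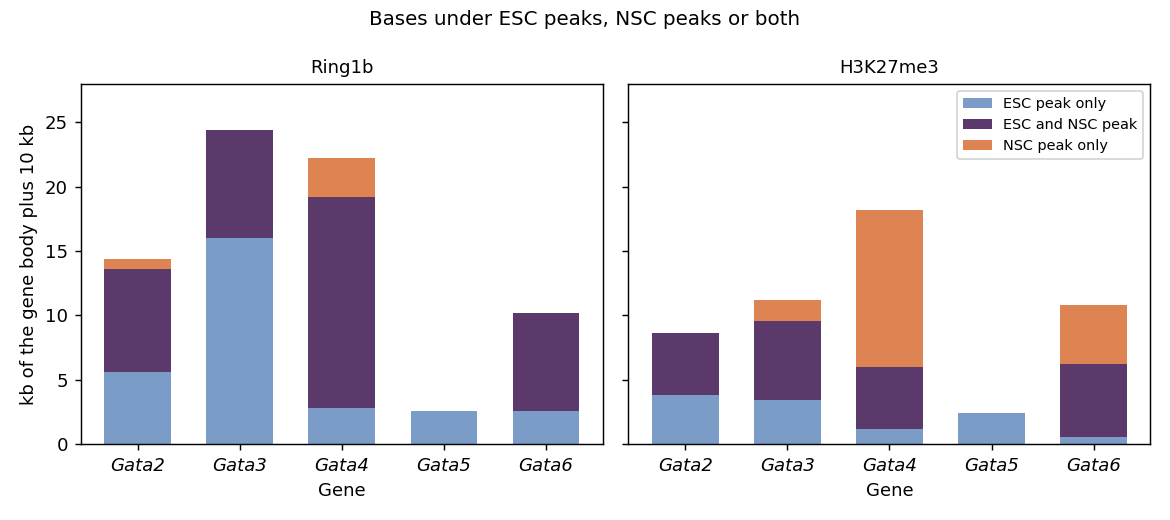
Bases of each GATA locus, in kb, under ESC peaks only, under both ESC and NSC peaks and under NSC peaks only, for Ring1b (left) and H3K27me3 (right). Bases under NSC H3K27me3 peaks only amount to 12200 bp at Gata4 and 4600 bp at Gata6, and Gata5 has ESC bases only.

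The same 4 genes had stretches under several lists at once. Peaks of all 4 ESC lists overlapped over 5800 bp at Gata2, 4200 bp at Gata6, 3400 bp at Gata4 and 2800 bp at Gata3. Of these bases, 100% lay under both NSC lists at Gata3 and at Gata4, 81.0% at Gata6 and 69.0% at Gata2. Stretches under all 6 lists added up to 4000, 3400, 3400 and 2800 bp at Gata2, Gata4, Gata6 and Gata3. ESC H3K27me3 lay mostly within Ring1b peaks, from 91.7% of its bases at Gata5 to 100% at Gata2, Gata3 and Gata4.
Gata5 differed from the other 4 by the absence of Cbx2 in ESCs as well as of NSC peaks. Of the 442 protein-coding genes with peaks of all 4 ESC lists in the locus, 49.3% (95% Clopper-Pearson interval 44.6% to 54.1%) had both NSC peaks and 27.8% (23.7% to 32.3%) had neither. Of the 599 genes with Ring1b, Ezh2 and H3K27me3 but no Cbx2 peak, as at Gata5, 7.18% (5.24% to 9.55%) had both and 58.6% (54.5% to 62.6%) had neither. These intervals cover counting error only, and neighbouring genes can share a peak. Gata5 also had a narrower widest ESC Ring1b peak (2600 bp) than the other 4 genes (9200 to 21200 bp). Peak width and Cbx2 were not separated here, and a link of either to NSC peaks was not tested.

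Genes that work with GATA factors were counted in the same way, in lists chosen from textbook knowledge with earlier results of these data known. Their counts stand beside shares over all protein-coding genes of 11.5% with an ESC Ring1b peak and, among those, 22.9% with an NSC Ring1b peak as well. Among 8 other GATA-type zinc finger genes and cofactors, 3 had an ESC Ring1b peak and 0 had an NSC Ring1b peak. Gata1, the erythroid member of the family, had no peak in any list. Zfpm1, a cofactor of Gata1 also known as Fog1, had covered shares of 6.66% for ESC Ring1b and 7.46% for ESC H3K27me3, and Gatad2a, a subunit of the NuRD complex, had 1.28% for ESC Ring1b.
Of 12 blood partners, 5 had an ESC Ring1b peak, and 1 of those 5 also had an NSC Ring1b peak, which is close to the share over all genes. That gene was Tal1, which encodes a partner of GATA factors in blood stem cells and in some neurons, with 31.1% of its locus under ESC Ring1b and 34.5% under NSC Ring1b. Lyl1, a relative of Tal1, had 22.4% under ESC Ring1b and none in NSCs. Hhex, a regulator of blood and endoderm, had no ESC peak and 6.47% under NSC Ring1b.
Of 12 heart and mesoderm partners, 9 had an ESC Ring1b peak and 4 of these kept one in NSCs. Hand2, a heart and limb regulator, had 77.8% of its locus under Ring1b in ESCs and 94.1% in NSCs. Nkx2-5, a partner of Gata4 in the heart, had 52.9% and 45.0%. Isl1 and Eomes, which act in heart progenitors and early mesoderm, had 49.7% and 34.4% in ESCs and 20.4% and 17.2% in NSCs.
Of 12 endoderm and trophoblast partners, 9 had an ESC Ring1b peak and 6 of these kept one. Foxa1, an endoderm regulator, had 66.7% of its locus covered in both cell types. Tfap2c, a trophoblast regulator that the annotation calls Tcfap2c, had 24.8% and 14.5%. Cdx2, which acts in trophoblast and hindgut, had 63.5% under Ring1b in ESCs and none in NSCs, but 44.6% under NSC H3K27me3. ESC H3K27me3 peaks were found at 5 blood, 8 heart and mesoderm, and 8 endoderm and trophoblast partners. Of these, 1, 5 and 6 also had an NSC H3K27me3 peak. Among the other GATA-type zinc finger genes and cofactors the counts were 1 and 0. The shares over all genes were 9.97% with an ESC H3K27me3 peak and, among those, 29.6% with an NSC one as well.

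Gata2 and Gata3 were also placed beside genes of the neurons that use them. In that list of 13, which contains both of them and Tal1, 11 had an ESC Ring1b peak and 4 of these kept one in NSCs. For Ring1b without Gata2 and Gata3 it was 2 of 9, close to the share over all genes (22.9%). Beside Tal1, the other gene that kept one was Lhx5, which acts in spinal and forebrain neurons, with 59.5% in ESCs and 16.9% in NSCs. Nkx2-2, a ventral neural tube regulator, had 47.4% in ESCs and none in NSCs. For H3K27me3, 11 of these 13 genes had an ESC peak. An NSC H3K27me3 peak was also present at 7 of those 11, where the share over all genes was 29.6%. Gata2 and Gata3 are among both the 7 and the 11, unlike in the 2 of 9 for Ring1b. Among 13 neural progenitor genes that were found in the annotation, 11 had an ESC Ring1b peak and 0 had one in NSCs. Sox2, named after its values were seen, was the 1 gene of that list with H3K27me3 peaks in both cell types, with shares of 5.34% and 8.02%. The largest ESC Ring1b covered shares in that list were those of the neural regulators Pou3f2 (99.0%) and Nr2f2 (79.9%). The highest of the NSC Ring1b shares of the GATA genes was 26.6% at Gata2 and the lowest above 0 was 14.3% at Gata6. The difference between the GATA genes and these lists was not tested.

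**Figure D4:**
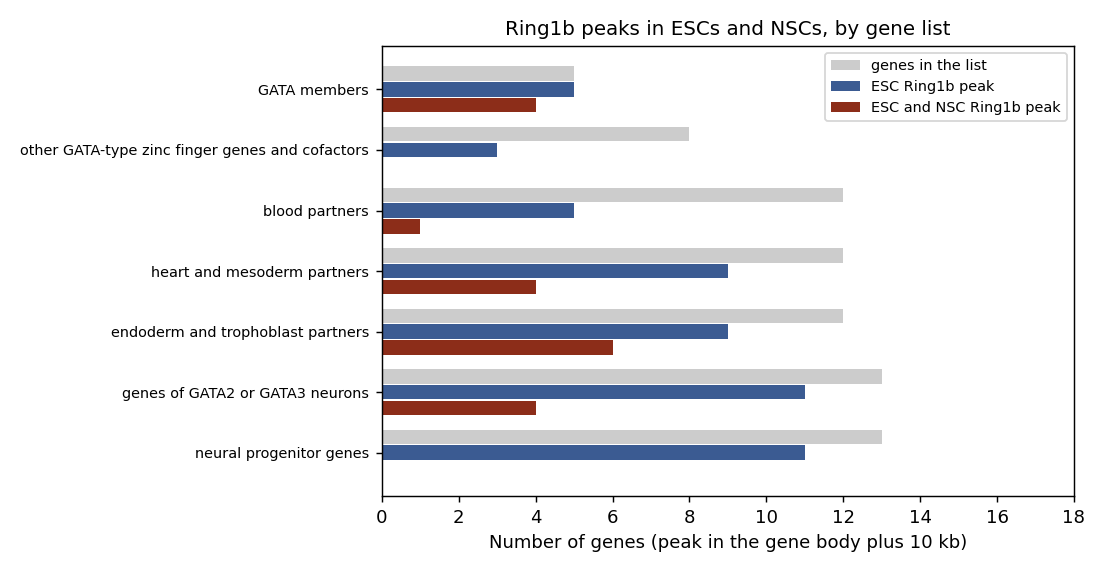
Number of genes in each list (grey), with an ESC Ring1b peak in the gene body plus 10 kb (blue) and with both an ESC and an NSC Ring1b peak (red). The GATA genes have 5, 5 and 4, and the neural progenitor genes 13, 11 and 0.

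The covered shares of the 6 lists were also used to find the protein-coding genes most like each GATA gene, by the mean absolute difference over the 6 values. Among the 5 genes followed here, Gata4 and Gata6 were closest, with a mean difference of 2.85 percentage points. Gata2 and Gata5 were farthest apart, with 21.4, and Gata1 was not part of this comparison. Outside these 5 genes, Gata6 was closest to Igf2 (1.68 points), Pax1 (1.69) and Mafa (1.75), and Gata4 to Pax1 (2.63), Lhx4 (3.11) and Igf2 (3.18). For Gata3 the closest genes were Fezf2 (3.45), Prdm8 (5.26) and Gm5607 (5.66), and for Gata2 they were Isl2 (4.62), Foxl2 (5.02) and Pcgf1 (5.32), which itself encodes a PcG subunit. Gata5 was closest to H2-Q7 (0.137), Gm14318 (0.260) and Rprml (0.404). Its covered shares were small, with no Cbx2 or NSC peak, which keeps differences in points small. They therefore do not show a closer likeness than the larger differences at Gata2 or Gata3. Gm14318 overlaps Gata5 and shares its peaks, so that its likeness is that of the same DNA.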

How the data were processed

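Each deposited list holds, for 1 library, the mm9 coordinates at which peaks begin and end. Per the paper's methods, the authors mapped paired-end tags with Bowtie (the submitters' processing notes name BWA), compared tag counts with input in sliding windows by a negative binomial distribution and merged nearby enriched windows. Ring1b cells were first cross-linked with EGS, which the other targets were not.

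Peaks were set against the GENCODE M1 annotation of that build with Python 3.11.15, numpy 2.4.6 and scipy 1.17.1, and 1 shared bp counted as overlap. A locus was the gene body plus 10 kb on either side. Exons of all transcripts were merged into blocks. No test was run, since each list is 1 library. The interval code was checked on simulated peaks. Alternatives were other windows and start sites, peaks of 2 kb or wider, merging over gaps of up to 3 kb, other overlaps and autosomes alone. Genes were named as the 5 members, the 3 nearest patterns to each, and, from each list, genes with an NSC Ring1b peak at a start and the 2 with the largest ESC Ring1b share, and a few were added after their values were seen (Gata1, Hhex and Sox2). Of the genes that this rule names, 1 is not reported here. Older symbols were matched for Spi1 and Tfap2c, and Sox1 was not analysed here. The members and lists were chosen with earlier results of these data known.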

Additional observations from a re-analysis of the deposited data

How the results depend on the processing

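The count of GATA genes that kept Ring1b in NSCs was 4 with the gene body alone, with 50 kb on either side, with peaks at least 2 kb wide and when the NSC peak had to overlap the ESC peak. For H3K27me3 it was also 4 under these settings, except that it was 3 with peaks at least 2 kb wide, since every ESC H3K27me3 peak at Gata4 was narrower than that. Counts at start sites depended more on the definition. With any annotated start in place of the outermost one, the number of GATA genes with a start inside a Cbx2 peak went from 2 to 4. With a peak within 1 kb of the outermost start, the number for NSC H3K27me3 went from 2 to 4. These were the 2 of 62 alternative counts and percentages that moved by over 1.5 times. Covered shares scale with the window. With 50 kb on either side, 27 of the 30 shares were more than 1.5 times lower, and with the gene body alone 11 were higher and 1 was lower by more than that. Dropping narrow peaks lowered 4 shares by over 1.5 times, and merging peaks within 3 kb raised 3. The order of the genes by ESC Ring1b and ESC H3K27me3 share differed between the gene body alone and the wider locus, as given above. Depth is unknown, and no library has a replicate that could be left out. How far the threshold of each list sets the presence or width of its peaks was not tested.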
